A study of Mus musculus with 18 samples.

Results

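The transcriptional responses of 2 mouse cancer cell lines to sildenafil were compared gene by gene, as the response of LLC cells (Lewis lung carcinoma) minus that of MC38 cells (colon adenocarcinoma). The comparison takes 12 of the 18 libraries of the series, 3 for each of 4 groups. MC38 cells were given DMSO or 100 µM sildenafil citrate for 24 hours, and LLC cells were given the same for 48 hours. Both lines carry the genotype label W.T and were grown in DMEM with 10% fetal bovine serum, and each is an established line studied at 1 dose and 1 time. Because the lines were harvested at different times, line and duration of treatment cannot be told apart in any difference given here. The other 6 libraries are from 4T1 mammary carcinoma cells (24 hours) and enter only as side values. A response is the log2 ratio of sildenafil to control within a line. The difference is the LLC response minus the MC38 response, so a negative value means a lower response in LLC. Both are given with the standard error (SE) of the fit where stated, levels are read counts normalised to the library total (CPM) with TMM scaling factors, and gene positions are on mm10. A gene is called at a Benjamini-Hochberg adjusted p under 0.05 in edgeR's quasi-likelihood test.

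Every gene that passed the expression filter was tested, 14842 of the 55450 identifiers in the count table. The labels do not state whether replicate libraries were grown as separate cultures. P-values therefore reflect the variation among these libraries, and that variation may be technical.

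Sildenafil inhibits the phosphodiesterase PDE5, which breaks down the second messenger cGMP, and the title of the series links PDE5a to cholesterol trafficking through NPC1, the transporter that carries cholesterol out of lysosomes. Cells keep sterols in balance through SREBP transcription factors, which are held in the endoplasmic reticulum when membrane cholesterol is plentiful and otherwise switch on the enzymes of cholesterol and fatty acid synthesis. A pair of other programmes recurs below: the integrated stress response, in which the factor ATF4 switches on genes of amino acid supply together with stress regulators such as DDIT3 and TRIB3, and the hypoxia response, in which HIF factors switch on genes of glycolysis, oxygen sensing and mitochondrial turnover.

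Library totals ran from 26348654 to 36417399 counts in the 12 libraries. LLC control replicate 3 stood apart from the other LLC controls, with a chi-square per degree of freedom of 53.04 and 44.6 against them, while all other pairs within a group gave 3.83 to 15.5. In the same library Gm26917, annotated as a non-coding gene and resembling ribosomal RNA, took 0.967% of counts, compared with 2.97% and 2.15% in the other LLC controls. Gm26917 was lower in every sildenafil library than in any control of MC38 (9129, 10690.1 and 14404 CPM in controls, 4929.8, 6046 and 5605 in sildenafil libraries) and ranged over 28963, 20569 and 9578 CPM in LLC controls and 13663, 7073 and 5815 in LLC sildenafil libraries. Its own response difference was -0.11 ± 0.620 (adjusted p = 0.969). Its part in the results was not tested, and counts given below with Gm26917 as a covariate are values only. Most defining epithelial markers of the labelled tissues were absent: Epcam, Cdx1 and Cdx2 were at 0 in every group, as were the lung genes Nkx2-1, Sftpa1, Sftpb, Sftpc and Sftpd, while the colon gene Cdh17 averaged 4.53 CPM in MC38 controls and the lung gene Napsa 5.06 CPM in LLC controls. The mesenchymal filament gene Vim averaged 4018 CPM in MC38 controls and 2029.6 in LLC controls, and Krt8 averaged 2479 and 209. Of 8 mesenchymal state markers, 5 had the higher control mean in LLC, while Vim, Twist1 and Snai1 were higher in MC38. In controls Zeb2 averaged 19.9 CPM in MC38 and 83.9 in LLC, and Cdh2 averaged 0.055 and 50.8. Of 9 leukocyte markers, Ptprc and Cd3e were at or near 0. Others were low but present: Csf1r averaged 2.74 CPM in MC38 controls and 4.61 under sildenafil, and Cd68 averaged 2.86 and 4.55. Lyz2 averaged 1.45 CPM in LLC controls and 3.31 under sildenafil. The 9 summed to 5.76 to 6.32 CPM in MC38 controls and 9.61 to 10.2 under sildenafil.

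Both lines responded broadly, and the responses of the genes were weakly correlated between the lines. In MC38, 3756 genes were called (25.3% of those tested), 2140 of them up (14.4%) and 1616 down (10.9%, 1069 genes without MC38 control replicate 2). In LLC, 4974 genes were called (33.5%), with 3073 up (20.7%) and 1901 down (12.8%). The difference between the responses was itself called for 3271 genes (22%) by edgeR's quasi-likelihood test with Benjamini-Hochberg adjustment. The LLC response was the higher for 1932 of these (13%) and the lower for 1339 (9.02%), and the first count was 1189 without MC38 control replicate 2. The split depends on scaling, since 59.1% of the calls had the higher response in LLC with TMM factors and 49.3% with library totals alone. Across all genes the responses had a Pearson r of 0.108 and a Spearman rho of 0.176, a description over genes that share the same libraries. The median difference over all genes was 0.00768 on the log2 scale, and its median SE at genes of at least 5 CPM was 0.0845.

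Among the 3271 genes with a called difference, 1392 were called in LLC and not in MC38 (42.6%) and 971 in MC38 and not in LLC (29.7%). A further 124 changed in the same direction in both with a smaller response in LLC, 117 with a larger one, and 196 were called in neither line alone. The remaining 471 moved in opposite directions: 225 rose in MC38 and fell in LLC (1.52% of all genes tested) and 246 fell in MC38 and rose in LLC (1.66%). Genes called in both lines numbered 1251 with the same sign and 471 with opposite signs. The count of 246 leans on single libraries: it was 603 without LLC control replicate 3, and 112 without MC38 control replicate 2, 159 without MC38 control replicate 1, 163 and 148 without MC38 sildenafil replicates 2 and 3, and 154 without LLC sildenafil replicate 3. The count of 225 stayed between 178 and 310. With Gm26917 as a covariate 3262 of the 3271 difference calls were kept, but 228 of the 471 genes kept opposite calls in both lines. Within MC38 a fraction of 0.855 of the spread in Gm26917 level went with the control or sildenafil label, and within LLC 0.462. Counts within a line under this covariate, here and below, therefore cannot separate Gm26917 from treatment. Mean Gm26917 was lower under sildenafil in both lines. Such a covariate can leave the difference largely as it was, so the kept calls are a weak check.

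The genes with opposite responses are described next by the ratio of LLC to MC38 levels in control and in sildenafil libraries. Over 9214 genes with a mean of at least 5 CPM in each line, the median log2 ratio of LLC to MC38 was -0.02 in control and 0.02 in sildenafil libraries. For the 183 of these that rose in MC38 and fell in LLC, the ratio was 0.53 in controls and -0.06 under sildenafil. For the 226 that fell in MC38 and rose in LLC it was -0.44 in controls and -0.02 under sildenafil. The lines were closer under sildenafil than in control for 57.4% and 67.3% of these genes, and for 54.9% of all 9214. These ratios carry no test, because the control libraries enter both the ratio and the response. The direction of each shift also follows from choosing genes that rose in 1 line and fell in the other. The share of 57.4% lies near that of all genes.

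A called difference with an estimate of 2-fold or more was found for 315 genes (2.12%), 109 with the higher response in LLC and 206 with the lower. Tested against 2-fold itself, the difference was called for 38 genes, 14 higher and 24 lower. Many of the most extreme estimates were at genes almost absent from 1 line, where a handful of counts sets the value. Card10, a signalling scaffold gene, had 0 counts in the 3 LLC controls together and 4 under sildenafil, and Itgb3, an integrin subunit gene, went from 3 to 62. In MC38 the matrix gene Fbln2 went from 0 to 13 counts, with 2743 and 2981 in LLC. No fold is given for these genes. Among the 9222 genes at 5 CPM or more in each line, a restriction added after seeing this, the difference reached 2-fold with the LLC response higher for 18 genes, led by Abca1, Tgfbi, Ogn, Crybg1 and Id3. It did so with the LLC response lower for 49 genes, led by Lpin1, Trib3, Tenm4, Ddit3 and Bnip3.

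Gene lists are described below by counts of called members. Over all genes tested the difference was called for 22%, with the higher response in LLC for 13% and the lower for 9.02%. In MC38 14.4% of all genes rose and 10.9% fell, and in LLC 20.7% rose and 12.8% fell. A list count near these shares is not read as a result about its members. List counts of 1 to 3 often changed when 1 library was left out or the filter changed, and are values only.

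Genes of the integrated stress response rose in MC38 and mostly fell in LLC. Of 15 tested factors and targets, 11 rose and none fell in MC38 (median log2 response 0.63), while 2 rose and 8 fell in LLC (median -0.25). The difference was called for 11 of the 15, each with the lower response in LLC, and 8 genes had opposite calls in the lines. The median difference was -0.63, beside 0.00768 over all genes. In the LLC controls 13 of the 15 genes had a higher mean than in the MC38 controls.

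Trib3 (chromosome 2, 152337422 to 152344032), a pseudokinase gene induced by ATF4 and DDIT3, stood at 19.5, 20.9 and 20.6 CPM in the MC38 controls and at 44.8, 43.3 and 44.9 under sildenafil. In LLC it stood at 174, 129 and 125 CPM in the controls and at 79.5, 62.8 and 59.4 under sildenafil. The groups did not overlap within either line, and the LLC controls were the highest of all 4 groups while the MC38 controls were the lowest. The responses were 1.12 in MC38 and -1.09 in LLC, a difference of -2.21 ± 0.208 (adjusted p = 9.57e-05).

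Ddit3, which encodes the stress factor CHOP, was measured at 8.78, 10.2 and 8.97 CPM in MC38 controls, 24.98, 25.5 and 23.6 under sildenafil, 92.3, 80.002 and 80.8 in LLC controls and 61.4, 56.8 and 54.97 under sildenafil. It too rose in MC38 and fell in LLC without overlap, and the difference was -1.95 ± 0.0986 (adjusted p = 9.91e-10). Atf3, a related stress factor gene, showed the same order of groups at lower levels (difference -1.91 ± 0.227, adjusted p = 2.02e-05). Chac1, whose product degrades glutathione, also had opposite calls (difference -1.45 ± 0.109, adjusted p = 1.09e-07). Atf4 itself differed in another way. It rose by 0.63 in MC38, from 275, 281 and 273 to 440.1, 424 and 423 CPM, and in LLC it was already higher in controls (572, 539.8 and 593 CPM) and gave a response of 0.00 (553, 573 and 582 CPM under sildenafil). Its difference was -0.63 ± 0.0588 (adjusted p = 1.2e-06).

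Most genes of amino acid synthesis and transport fell in LLC. In LLC 17 of 20 fell and none rose (median -0.32), whereas in MC38 7 rose and 2 fell (median 0.08). Differences were called for 14, all with the lower response in LLC, 6 genes had opposite calls, and 18 of the 20 had the higher control level in LLC. Slc7a11 (chromosome 3, 49892526 to 50443614), the cystine importer gene, stood at 14.2, 14.99 and 15.3 CPM in MC38 controls, 23.8, 22.6 and 25.7 under sildenafil, 92.5, 86.8 and 84.6 in LLC controls and 50.5, 47.3 and 50.2 under sildenafil. It rose in one line and fell in the other without overlap between groups, with a difference of -1.53 ± 0.0795 (adjusted p = 1.24e-09). Aldh1l2, a mitochondrial folate enzyme gene that was named for its opposite calls and is in no list, gave 18.4, 19.8 and 20.9 CPM, 33.6, 35.8 and 33.95, 124, 116 and 111 and 64.5, 59.3 and 59.9 in the same order of groups. Its difference was -1.74 ± 0.0791 (adjusted p = 3.28e-10).

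Among the others, Pycr1 (proline synthesis) differed by -1.35, Gpt2 (alanine transaminase) by -1.06 and Asns (asparagine synthetase) by -0.42, all 3 with opposite calls. Cth, which makes cysteine, fell by 1.07 in LLC and gave 0.08 in MC38, where it was not called. The cytosolic tRNA synthetase genes, which also include ATF4 targets, gave 9 of 20 lower in LLC and 4 higher, and the latter count was 1 without MC38 control replicate 2. Of 22 genes of the unfolded protein response, a neighbouring programme of the endoplasmic reticulum, 15 rose in MC38 and none fell, while 6 rose and 4 fell in LLC (3 and 1 with Gm26917 as a covariate). The count of 4 was 2 without any 1 of LLC control replicates 1 and 2 and LLC sildenafil replicates 1 and 2. A lower response in LLC was called for 11 of the 22, a count that fell to 6 without LLC control replicate 2 or LLC sildenafil replicate 2, and to 7 without any 1 of MC38 control replicate 1, MC38 sildenafil replicate 2 and MC38 sildenafil replicate 3.

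The promoter of Slc7a11 is shown because it carries the C/EBP-ATF element, to which ATF4-type factors bind, in a gene with opposite calls. The window is the 250 bases before the RefSeq start site (GRCm38.p6, chr3:50443614-50443863, minus strand, written 5′ to 3′ on that strand), and capitals mark matches to TGATGNAAN on either strand, which begin 66 and 48 bases before the start.
Slc7a11: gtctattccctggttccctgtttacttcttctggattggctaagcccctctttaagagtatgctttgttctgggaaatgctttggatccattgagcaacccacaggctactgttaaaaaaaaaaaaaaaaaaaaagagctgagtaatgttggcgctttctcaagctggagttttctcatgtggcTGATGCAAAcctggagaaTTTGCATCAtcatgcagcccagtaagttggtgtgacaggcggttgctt
Promoters were found for 10194 of 14826 tested symbols, and 1.98% of them held TGATGNAAN in this window. The share was 28.6% among stress response genes (4 of 14), 25% among amino acid genes (4 of 16), 6.36% among the genes up in MC38 and down in LLC and 0.971% among those of the reverse pattern. Both lists hold targets of ATF4, so their shares are not independent of the element. Their members with opposite calls are also among the genes up in MC38 and down in LLC. The element was searched on both strands, and a match is a description of letters and not of binding. Chac1 also held a match, while Trib3 and Ddit3 had none in their windows.

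Hypoxia-response genes showed the same contrast. Of 23 HIF targets outside glycolysis, 19 rose and none fell in MC38 (median 0.47), while 3 rose and 15 fell in LLC (median -0.28). Differences were called for 18, all with LLC the lower, with a median difference of -0.62, and all 23 estimates lay below 0. Opposite calls were made for 13 of the 23. Control means were higher in LLC for 16.

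Bnip3 (chromosome 7, 138890836 to 138909519), which promotes mitophagy, stood at 26.4, 31.2 and 29.3 CPM in MC38 controls, 70.04, 76.8 and 71.6 under sildenafil, 171, 183 and 216 in LLC controls and 112, 136 and 139 under sildenafil. The MC38 libraries separated widely, the LLC libraries also did not overlap, and the difference was -1.89 ± 0.152 (adjusted p = 1.67e-05). Ero1l, an oxidase of protein folding, fell from 330.1, 369.5 and 351 to 171, 183 and 189 CPM in LLC and rose from 106, 116 and 109 to 140.4, 147 and 147 in MC38 (difference -1.35 ± 0.0703, adjusted p = 1.25e-09). Pdk1, which restrains pyruvate entry into mitochondria, differed by -1.14 ± 0.0586 (adjusted p = 1.12e-09). Vegfa, the angiogenic growth factor gene, rose by 0.95 in MC38 to 52.5, 55.8 and 51.4 CPM, near the level that LLC held both in controls (54.5, 58.8 and 53.5 CPM) and under sildenafil (54.7, 59.2 and 54.97 CPM).

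Glycolysis genes had medians of the same signs. Of 20, 15 rose and 2 fell in MC38 (median 0.26), and none rose and 6 fell in LLC (median -0.07). The LLC response was lower for 14 and higher for 1, with 5 opposite calls. The glucose transporter gene Slc2a1 gave 0.32 in MC38 and -0.53 in LLC (difference -0.85 ± 0.0789), and the phosphofructokinase gene Pfkp gave 0.39 and -0.43 (difference -0.82 ± 0.0648). Slc16a3, the lactate exporter gene, rose by 1.15 in MC38 and gave 0.09 in LLC, where it was not called. With Gm26917 as a covariate the number of glycolysis genes that fell in LLC was 13 and that of opposite calls 11.

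The Bnip3 promoter is shown for its hypoxia response core, ACGTG, which overlaps on both strands in a single CACGTG (GRCm38.p6, chr7:138909507-138909756, minus strand, the 250 bases before the RefSeq start, capitals marking the match that begins 108 bases before it).
Bnip3: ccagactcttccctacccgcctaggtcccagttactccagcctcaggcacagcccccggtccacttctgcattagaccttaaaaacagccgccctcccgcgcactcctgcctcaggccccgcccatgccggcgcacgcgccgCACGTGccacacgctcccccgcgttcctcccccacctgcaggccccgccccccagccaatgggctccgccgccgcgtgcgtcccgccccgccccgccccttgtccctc
ACGTG on either strand was present in 21.9% of all promoters matched. The share was 50% among the HIF targets outside glycolysis (9 of 18), 32.9% among all genes up in MC38 and down in LLC (57 of 173) and 20.9% among those down in MC38 and up in LLC (43 of 206). The list was chosen as HIF targets, so its share is not independent of the motif. Its members with opposite calls are also among the genes up in MC38 and down in LLC. The Pdk1 window held no match, while the window of Abca1, a gene of the reverse pattern, also held CACGTG.

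**Figure D1:**
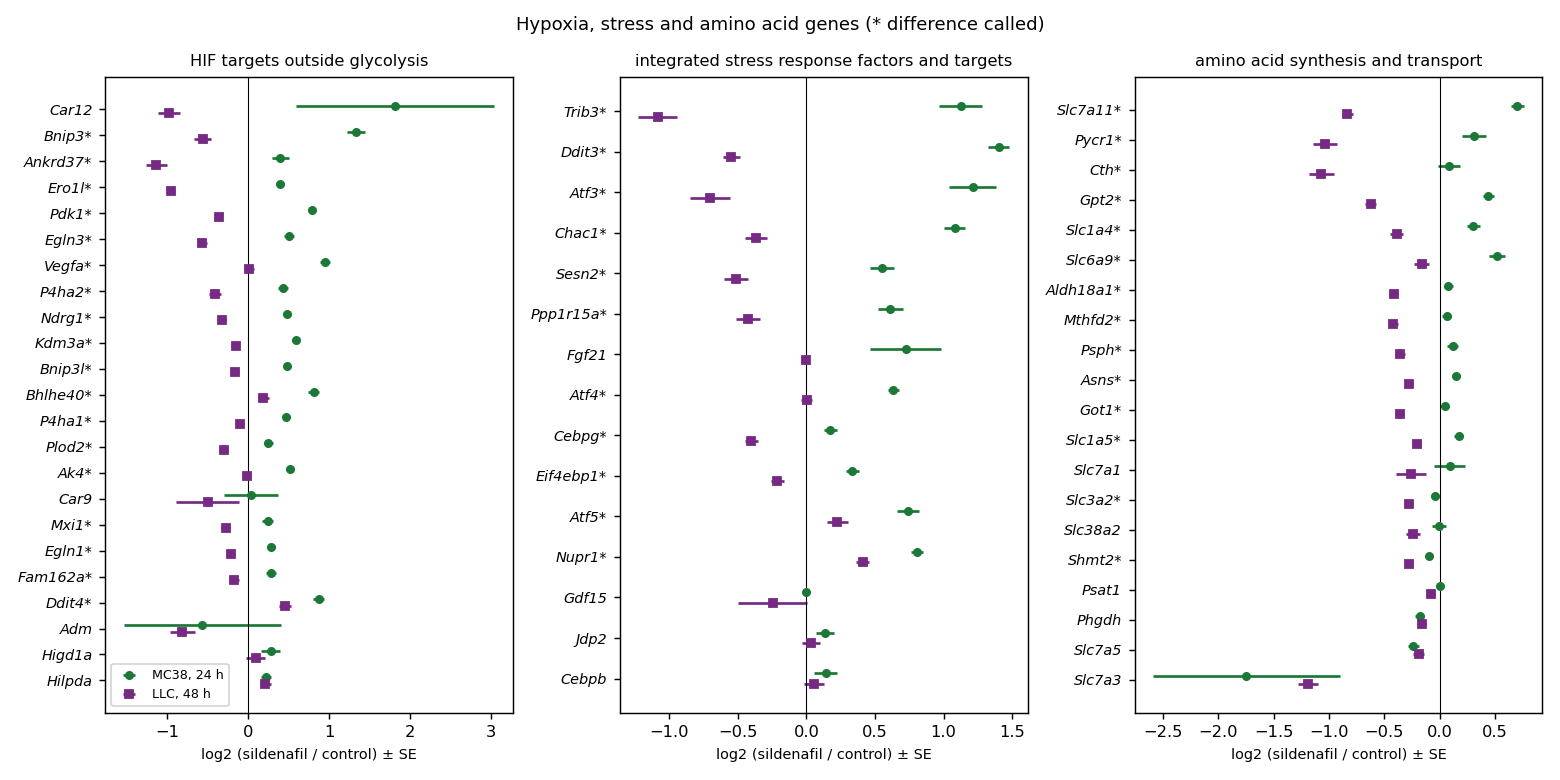
Log2 response to sildenafil ± SE in MC38 (circles, 24 h) and LLC (squares, 48 h) for the tested members of 3 lists, ordered by the difference, with an asterisk where the difference was called. Most members lie to the right of 0 in MC38 and to the left in LLC in the first 2 lists, and in the third the LLC values lie left of 0 while the MC38 values lie near it. Car12, Adm and Slc7a3 have wide error bars in MC38 and no call in the difference.

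Genes of cholesterol synthesis rose in both lines, and by less in LLC. All 21 enzyme genes rose in LLC and 18 rose in MC38, with median responses of 0.82 and 1.55. The LLC response was lower for 16 of the 21 and higher for 1, and the median difference was -0.77. Tested against a 2-fold change, 3 of the 21 had a called difference, and under the other alternatives the count of lower responses was 16 or 17. The count of 1 was 2 without MC38 control replicate 3, LLC control replicate 3 or LLC sildenafil replicate 1. Hmgcs1 (chromosome 13, 119690379 to 119708260), an early enzyme of the mevalonate pathway, stood at 96.3, 100.4 and 91.2 CPM in MC38 controls and 635, 643 and 659.7 under sildenafil. In LLC it stood at 109, 119.9 and 126 CPM in controls and 242, 276 and 277 under sildenafil. The controls of the lines lay near each other, the treated MC38 libraries lay far above all others, and the difference was -1.59 ± 0.0825 (adjusted p = 1.53e-09).

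Nsdhl, a sterol demethylation enzyme gene, differed by -1.52 ± 0.0969, Fdft1 (squalene synthase) by -1.47 ± 0.0672, Lss (lanosterol synthase) by -1.25 ± 0.0690 and Idi1 (isopentenyl isomerase) by -0.94 ± 0.0731. Dhcr7, Ebp, Ggps1 and Tm7sf2 had no called difference.

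The Hmgcs1 promoter is shown for the sterol element TCACNCCAC, to which SREBP factors bind (GRCm38.p6, chr13:119690101-119690350, plus strand, the 250 bases before the RefSeq start, with the match in capitals beginning 137 bases before it).
Hmgcs1: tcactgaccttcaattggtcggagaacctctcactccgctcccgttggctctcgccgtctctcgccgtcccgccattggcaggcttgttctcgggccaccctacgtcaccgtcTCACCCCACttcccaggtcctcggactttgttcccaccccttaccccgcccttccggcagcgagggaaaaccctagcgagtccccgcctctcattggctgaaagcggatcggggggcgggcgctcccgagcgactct
This spelling was found on either strand in 0.932% of all promoters matched and in 1 of the 16 cholesterol enzyme promoters, so the letters do not mark the list as a whole.

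Regulators of sterol sensing were less uniform. Insig1, which retains SREBP in the endoplasmic reticulum, rose from 137, 140.4 and 136 to 686, 679 and 685 CPM in MC38 and from 156, 159 and 172 to 318, 340.4 and 348 in LLC (difference -1.27 ± 0.0626, adjusted p = 7.43e-10). Srebf2, the sterol-responsive SREBP gene, rose by 0.72 in MC38 and gave 0.05 in LLC, where the groups overlapped. LLC control replicate 3, the library low in Gm26917, was the lowest of that line for Srebf2 (143, 135 and 106 CPM in controls, 143, 127 and 127 under sildenafil). Srebf1, its paralog, showed the reverse, with 0.00 in MC38, not called, and a rise of 0.30 in LLC (difference 0.29 ± 0.0635).

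Lpin1, a phosphatidate phosphatase gene that also responds to SREBP, rose by 2.09 in MC38 and fell by 0.19 in LLC. It stood at 37.2, 37.9 and 35.8 CPM in MC38 controls, 155, 160.4 and 158 under sildenafil, 50.2, 56.7 and 49.4 in LLC controls and 49.4, 45.9 and 42.2 under sildenafil. The MC38 groups were far apart, the LLC groups met at 49.4 CPM, and the difference was -2.28 ± 0.0827 (adjusted p = 2.46e-11).

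Fatty acid synthesis genes followed the cholesterol enzymes. In each line 12 of 13 rose, with medians of 0.99 in MC38 and 0.39 in LLC. A lower response in LLC was called for 10, and a higher one for none. The desaturase genes Scd2 and Scd1 differed by -1.01 ± 0.0777 and -0.88 ± 0.0562, and the elongase gene Elovl6 by -0.73 ± 0.0835. Me1, which supplies NADPH, was the exception in direction, since it fell by 0.34 in LLC and gave -0.01 in MC38, where it was not called.

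**Figure D2:**
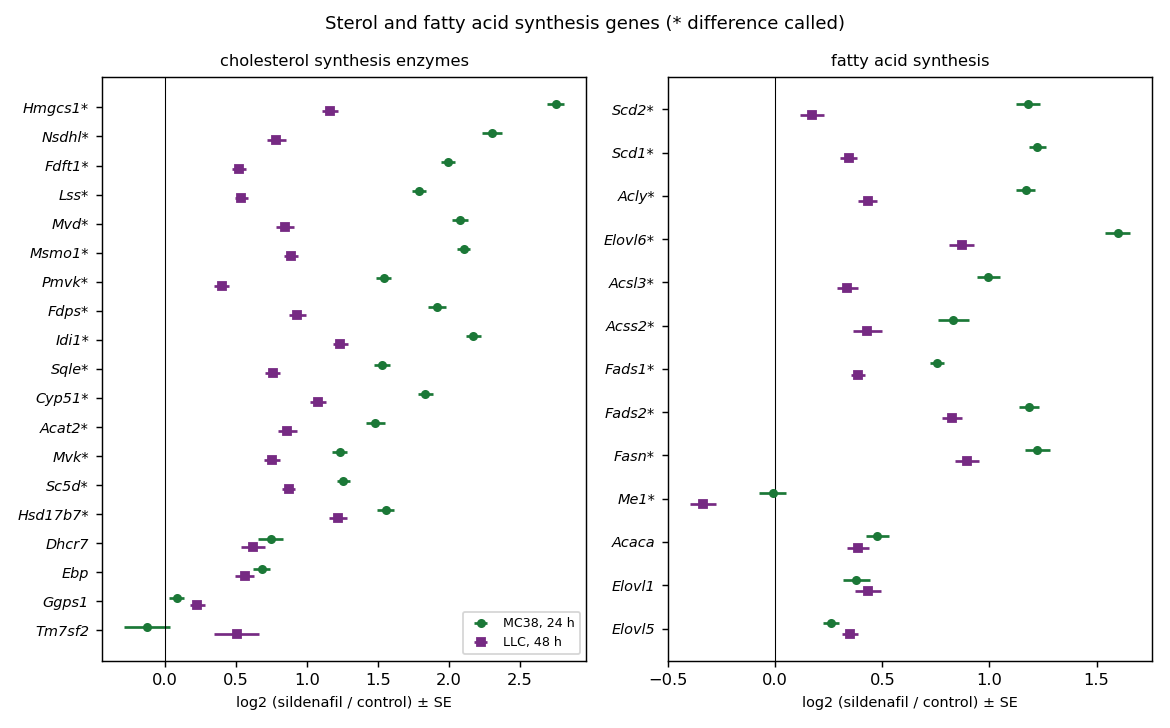
Log2 response to sildenafil ± SE in MC38 (circles, 24 h) and LLC (squares, 48 h) for 19 of the 21 cholesterol synthesis enzymes tested (left) and fatty acid synthesis genes (right), with an asterisk where the difference was called. The difference was called with the lower response in LLC for 15 of the 19 enzymes plotted and for 10 of 13 fatty acid genes.

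Among cholesterol export genes Abca1 had opposite calls. Abca1 (chromosome 4, 53030787 to 53159895), which exports cholesterol to lipoproteins and is a target of LXR receptors, stood at 62.7, 60.7 and 70.2 CPM in MC38 controls and 20.8, 19.01 and 21.1 under sildenafil. In LLC it stood at 5.36, 5.29 and 5.51 CPM in controls and 12.97, 11.6 and 12.7 under sildenafil. It fell in MC38 and rose in LLC, with the MC38 controls the highest group and the LLC controls the lowest, and the difference was 2.87 ± 0.101 (adjusted p = 2.46e-11). Of 7 tested LXR and efflux genes 1 had the higher response in LLC and 3 the lower, or 1 the lower without MC38 control replicate 1 or MC38 sildenafil replicate 1. Abcg1 did not pass the expression filter.

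Of 19 endolysosomal cholesterol trafficking genes, 13 rose in MC38 and 10 in LLC. The difference was called for 3 in each direction (15.8% each, beside 13% higher and 9.02% lower over all genes). The count with the higher response in LLC was 0 without MC38 control replicate 2, MC38 sildenafil replicate 3 or LLC sildenafil replicate 3. It was 1 without MC38 control replicate 1, MC38 sildenafil replicate 1, LLC control replicate 1, LLC control replicate 2 or LLC sildenafil replicate 2, and 6 without LLC control replicate 3, and it is not read as a result. Npc1, the lysosomal transporter gene, gave 57.6, 56.97 and 59.4 CPM in MC38 controls, 77.5, 73.5 and 78.6 under sildenafil, 32.7, 31.4 and 29.97 in LLC controls and 39.8, 34.6 and 37.2 under sildenafil. It rose in both lines without overlap, by 0.40 and 0.25, and its difference of -0.16 ± 0.0749 did not pass the test (adjusted p = 0.156). Its luminal partner gene Npc2 rose by 0.66 and 0.53 (difference -0.13 ± 0.0609, adjusted p = 0.148), a difference that was called under 4 of the alternatives. Of 26 lysosomal hydrolase and proton pump genes 22 rose in MC38 and 18 in LLC, and 9 had the lower response in LLC, among them the lysosomal glycoprotein gene Gpnmb by -0.79 and the sialidase gene Neu1 by -0.54. Without MC38 sildenafil replicate 2 that count was 5.

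Pde5a, the gene of the enzyme that sildenafil inhibits, rose by 0.31 in MC38, from 12.5, 12.97 and 13.04 to 16.4, 15.4 and 15.97 CPM. In LLC it was low, at 4.09, 3.77 and 4.01 CPM in controls and 4.04, 4.12 and 4.31 under sildenafil, and was not called. The difference of -0.24 ± 0.112 did not pass the test (adjusted p = 0.141). Of 17 tested phosphodiesterase and cGMP signalling genes the difference was called for 1 (5.88%), below the 22% of all genes tested. That gene was Prkg2, a cGMP-dependent kinase gene. Prkg2 rose by 0.22 in MC38 and fell by 0.52 in LLC, from 139.8, 132 and 134 to 91.3, 89.3 and 102 CPM (difference -0.74 ± 0.0685, adjusted p = 1.16e-06).

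**Figure D3:**
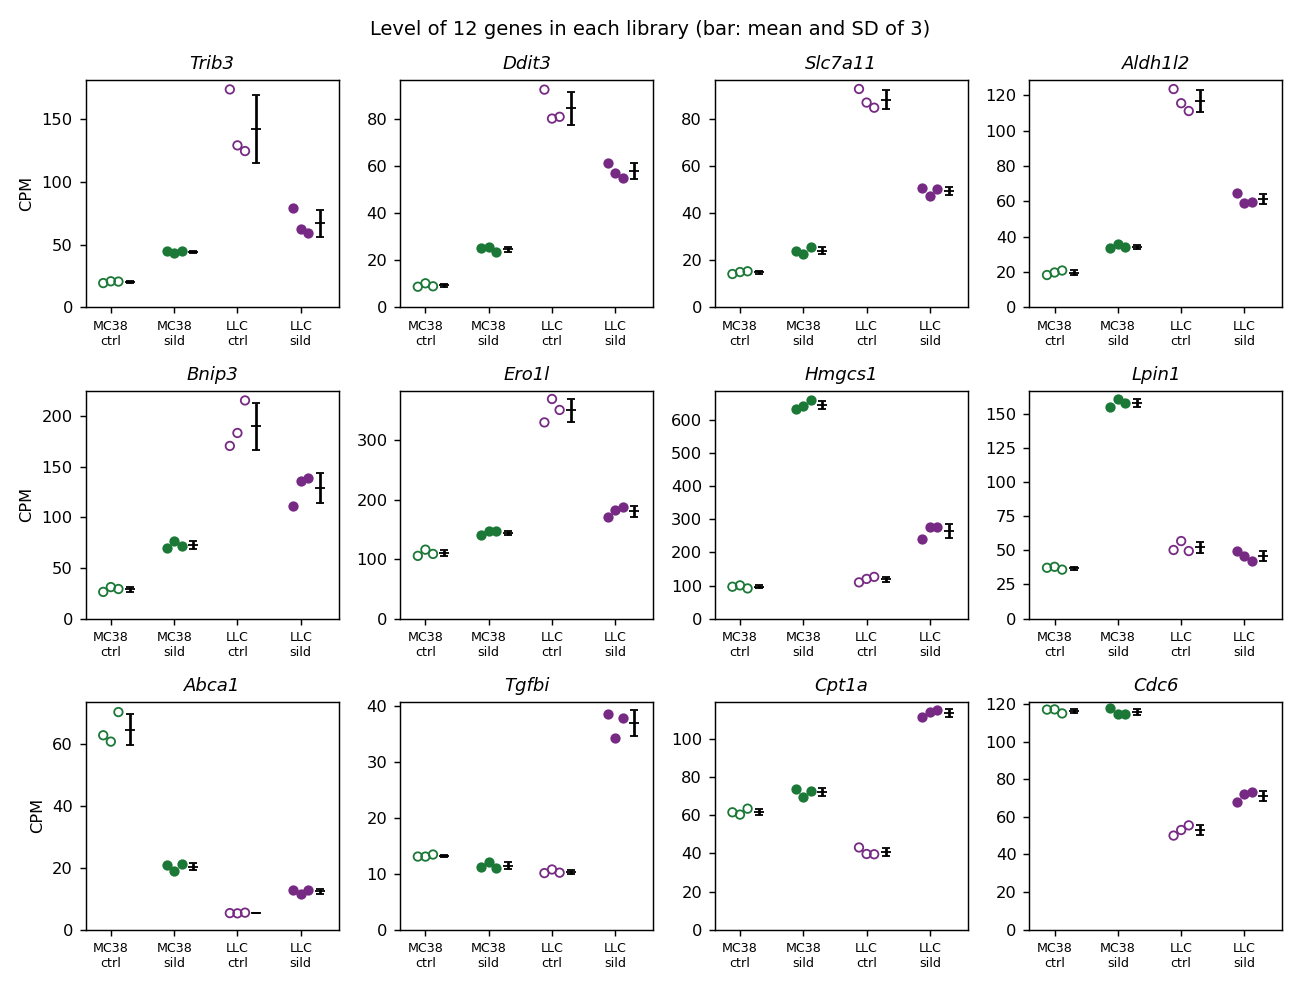
CPM of 12 genes in each of the 12 libraries, with MC38 in green and LLC in purple, controls as open and sildenafil libraries as filled circles, and the mean and SD of 3 libraries beside them. Trib3, Ddit3, Slc7a11, Aldh1l2, Bnip3 and Ero1l are highest in LLC controls and move in opposite directions, Hmgcs1 and Lpin1 rise furthest in MC38, and Tgfbi and Cpt1a rise furthest in LLC.

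Several genes of the matrix, of TGF-beta signalling and of fatty acid oxidation rose in LLC and rose less, fell or were not called in MC38. Tgfbi (chromosome 13, 56609523 to 56639562), a secreted matrix protein gene induced by TGF-beta, stood at 13.1, 13.1 and 13.4 CPM in MC38 controls, 11.1, 12.2 and 10.96 under sildenafil, 10.1, 10.8 and 10.2 in LLC controls and 38.6, 34.2 and 37.9 under sildenafil. The treated LLC libraries lay far above the other 3 groups, which were close to one another, and the difference was 2.04 ± 0.0920 (adjusted p = 3.28e-10). Of 20 tested TGF-beta ligands, receptors and targets, 9 rose and 2 fell in LLC, 1 rose and 6 fell in MC38, and 7 had the higher response in LLC against 1 lower. The count of 6 was 3 with Gm26917 as a covariate and without MC38 control replicate 3 or MC38 sildenafil replicate 1, and the covariate reduced the genes down in MC38 and up in LLC from 4 to 1. The single lower call became 2 without LLC control replicate 1, LLC control replicate 3 or LLC sildenafil replicate 3. Smad3, a signal transducer of the pathway, differed by 0.58 ± 0.0511 and Id3, an inhibitor of differentiation factors, by 1.36 ± 0.137, while Tgif1, a repressor of the pathway, differed by -0.82 ± 0.0707.

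Col3a1, a fibrillar collagen gene, rose from 1013, 1052 and 1026 to 1980.2, 1977 and 2005 CPM in LLC and fell from 407, 403 and 381 to 341, 339 and 334 in MC38 (responses 0.95 and -0.23, adjusted p of the difference 6.24e-10). Of 27 tested matrix and protease genes 10 had the higher response in LLC and 3 the lower, with a median difference of 0.49 (0.156 without LLC sildenafil replicate 3). Several of these genes were close to absent in 1 line: Col5a1 had 5 and 21 counts in the LLC groups. With genes at 5 CPM or more in each line the count was 5 and the median 0.30. Fibroblast markers were mixed beside this result. Col1a1, Col1a2 and Dcn were present in MC38 and near 0 in LLC, and Lum and Thy1 were at or near 0 in both lines. Pdgfra stood at 60.5, 61.1 and 55.8 CPM in LLC controls and 130.3, 121 and 127 under sildenafil. The summed level of the 7 markers was 67.0 to 75.3 CPM in LLC controls and 144 to 155 under sildenafil, and in MC38 it was 592 to 611 and 581 to 591. In LLC nearly all of the sum was Pdgfra and Pdgfrb, the latter at a mean of 12.7 CPM in controls and 22.9 under sildenafil. The part of these markers in the matrix result was not tested.

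Cpt1a, which brings fatty acids into mitochondria, stood at 61.5, 60.3 and 63.4 CPM in MC38 controls, 73.8, 69.7 and 72.7 under sildenafil, 43.1, 39.6 and 39.5 in LLC controls and 111, 114 and 115 under sildenafil. It rose in both lines and far more in LLC, which went from the lowest group to the highest (difference 1.25 ± 0.0613, adjusted p = 7.42e-10). Angptl4, a lipase inhibitor gene and PPAR target, rose from 1.40, 1.49 and 1.88 to 4.48, 5.96 and 6.58 CPM in LLC and was not called in MC38 (difference 2.01 ± 0.169). The lipid droplet coat gene Plin2 differed by 0.88 ± 0.0697, whereas Acot2, a mitochondrial thioesterase gene, went the other way with -1.23 ± 0.127. Of 20 PPAR and fatty acid oxidation genes 6 had the higher response in LLC and 1 the lower.

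Among inflammatory genes the chemokine gene Cxcl1 had the largest difference, 3.02 ± 0.210 (adjusted p = 4.21e-08). It fell from 11.4, 13.7 and 12.3 to 6.37, 7.66 and 5.70 CPM in MC38 and rose from 0.599, 0.543 and 0.669 to 2.56, 2.79 and 2.43 in LLC, where it was low throughout. Of 17 tested NF-kB and inflammatory genes 7 had the higher response in LLC and none the lower, including Nfkbia, the feedback inhibitor (0.82 ± 0.123), and the chemokine gene Ccl2 (0.63 ± 0.0936). Interferon-response genes rose in both lines, 26 of 39 in MC38 and 18 in LLC, while 7 had the higher (17.9%) and 3 the lower response in LLC (7.69%), shares near the 13% and 9.02% of all genes. The number that rose in MC38 was 9 with Gm26917 as a covariate and 16 without MC38 sildenafil replicate 2. In each line it was 8 when only genes at 5 CPM or more in both were fitted, which leaves fewer members to test. Of 16 MHC class I genes 7 had the higher response in LLC (43.8%) and 2 the lower (12.5%), led by the immunoproteasome gene Psmb8 at 1.04 ± 0.122. Psmb8 was low in LLC, at 1.66, 1.49 and 1.82 CPM in controls and 3.10, 3.54 and 3.11 under sildenafil. Only 1 of the 16 had the higher control mean in LLC. With genes at 5 CPM or more in each line, the MHC class I genes that rose in LLC went from 9 to 6. The NF-kB and inflammatory genes that rose there went from 7 to 5.

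Most replication genes rose in LLC and were not called in MC38. Of 42 S phase genes 31 rose and 1 fell in LLC (median 0.21), while 1 rose and 1 fell in MC38 (median -0.01). The LLC response was higher for 25 and lower for none, a count that fell to 16 without MC38 control replicate 2, and the number that rose in LLC was 18, and that fell in MC38 was 9, with Gm26917 as a covariate. Cdc6, which loads the replicative helicase, stood at 117, 117 and 115 CPM in MC38 controls, 118, 115 and 115 under sildenafil, 50.04, 53.01 and 55.5 in LLC controls and 68.1, 71.9 and 73.4 under sildenafil. The MC38 groups overlapped, the LLC groups did not, LLC stayed below MC38 in every library, and the difference was 0.44 ± 0.0604 (adjusted p = 7.53e-05). Ccne1, the cyclin gene of S phase entry, fell in MC38 and rose in LLC (difference 0.63 ± 0.0871). Cdkn1a, the cell cycle inhibitor and p53 target gene, did the reverse, from 2.26, 2.35 and 2.28 to 5.05, 5.05 and 5.84 CPM in MC38 and from 11.9, 10.6 and 8.66 to 5.16, 5.18 and 5.08 in LLC (difference -2.23 ± 0.172, adjusted p = 1.36e-07).

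Ribosome biogenesis genes fell in MC38 (25 of 29, none up, median -0.29), and in LLC 2 rose and 6 fell (median 0.00). A higher response in LLC was called for 16 and a lower one for none, with Nop58, a nucleolar protein gene, at 0.56 ± 0.0962 and Dkc1, the pseudouridine synthase gene, at 0.51 ± 0.0774. The number that rose in LLC was 9 without LLC control replicate 3 and 8 without LLC sildenafil replicate 1, and the number that fell there was 3 without the latter. Cytosolic ribosomal protein genes gave 30 higher and none lower of 76, but this count ranged from 6 to 74 over the alternatives, at 6 without MC38 control replicate 2 or MC38 sildenafil replicate 3 and at 74 without LLC control replicate 3, and it is not read as a difference. The same holds for the histone genes, where 12 of 64 were higher and the count was 4 without MC38 control replicate 2 and 36 without LLC control replicate 3. It holds too for the nuclear oxidative phosphorylation genes, where 9 of 29 were higher and the count was 0 and 19 without the same libraries.

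Several cytoskeletal genes had the higher response in LLC. Of 16 SRF targets of the actin cytoskeleton 15 fell in MC38 and none rose, while 3 rose and 5 fell in LLC (5 rose without LLC control replicate 3, and 3 fell without LLC sildenafil replicate 1 or 2), and 8 had the higher response in LLC. Of 12 tubulin genes 8 rose in LLC and 1 fell, and 7 had the higher response in LLC against none lower. Tubb2a differed by 0.82 ± 0.0739 and Actg1, a cytoplasmic actin gene, by 0.49 ± 0.0666. The number of tubulin genes that rose in LLC was 4 with Gm26917 as a covariate and 5 without LLC sildenafil replicate 3, and tubulin genes are close paralogs whose reads may be shared.

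Clock genes were lower in response in LLC for 7 of 15 and higher for none. Ciart, a repressor of the clock, rose from 3.86, 4.27 and 3.54 to 9.34, 8.57 and 7.86 CPM in MC38 and fell from 18.9, 18.2 and 18.4 to 12.2, 14.7 and 13.7 in LLC (difference -1.59 ± 0.131, adjusted p = 2.76e-07). Dbp (-1.16) and Nfil3 (-1.12), a pair of clock output factors that act on the same sites in opposite ways, both had opposite calls. Cry1, a core repressor, fell by 0.97 in LLC and gave 0.04 in MC38, not called. The nuclear RNA Neat1, the scaffold of paraspeckles, was abundant in LLC and not in MC38, and fell from 1473, 1551 and 1245 to 579, 677 and 530.1 CPM in LLC (difference -1.52 ± 0.195). Tenm4, a teneurin gene, was at similar levels in both controls and was not called in MC38, while it fell in LLC from 127, 133 and 103 to 34.3, 33.2 and 33.1 CPM (difference -2.04 ± 0.167).

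Other lists gave differences in both directions or few of them. Immediate early genes and feedback regulators of ERK signalling had 4 higher (16.7%) and 8 lower (33.3%) responses of 24 in LLC. The count of 4 was 1 without MC38 control replicate 1 and 2 without any 1 of MC38 control replicate 2, MC38 sildenafil replicates 2 and 3, LLC control replicates 1 and 2 and LLC sildenafil replicates 2 and 3. Single genes included the phosphatase gene Dusp4 at -0.93 ± 0.0701, the ETS factor gene Etv5 at -0.59 ± 0.0609 and the AP-1 factor gene Fosl2 at 0.72 ± 0.0614. Autophagy genes gave 3 in each direction of 21, but the higher count ranged from 0 without MC38 control replicate 2 to 7 without LLC control replicate 3, and neither is read as a result. Sqstm1, an autophagy receptor gene, rose by 0.43 in MC38 and gave -0.02 in LLC (difference -0.44 ± 0.0550). Heat shock chaperone genes gave 6 higher and 1 lower of 16, or 10 higher with Gm26917 as a covariate. NRF2 targets, apoptosis regulators, p53 targets and YAP and TEAD genes each gave at most 5 called differences in either direction, and nothing is read from them. Mitosis genes gave 9 higher and 1 lower of 32, a count that fell to 5 without MC38 control replicate 1, MC38 control replicate 2 or LLC sildenafil replicate 3 and was 14 without LLC control replicate 3.

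**Figure D4:**
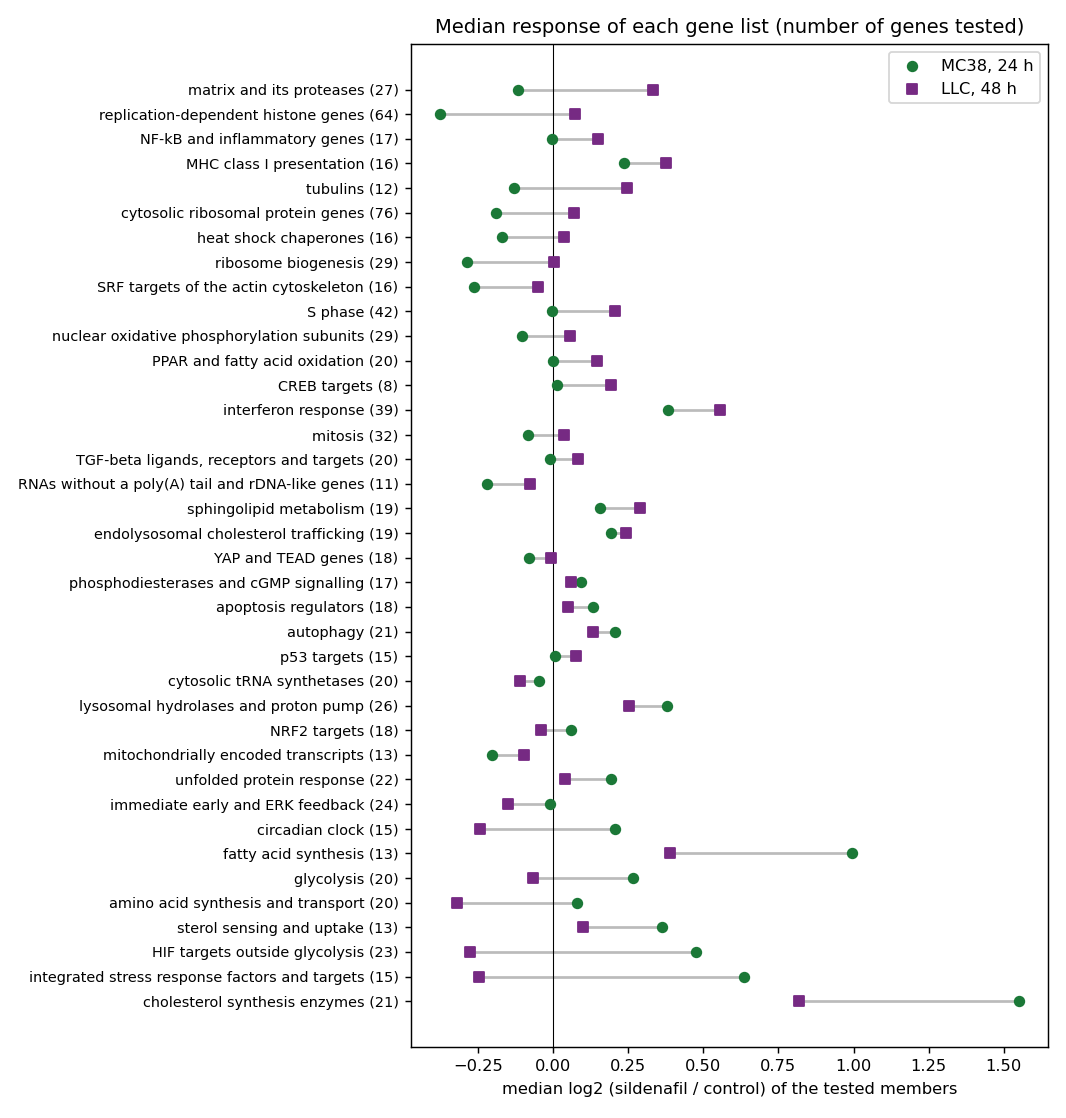
Median log2 response of the tested members of each gene list with at least 8 tested genes, in MC38 (circles, 24 h) and LLC (squares, 48 h), ordered by the median difference, with the number of genes tested in brackets. Stress response, HIF, amino acid, glycolysis and clock genes have medians above 0 in MC38 and below 0 in LLC, and cholesterol and fatty acid synthesis genes have medians above 0 in both lines with the larger value in MC38.

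The 4T1 libraries, fitted apart with their own controls and harvested at 24 hours as MC38 was, give side values for the genes with opposite calls. Of the 216 genes up in MC38 and down in LLC that were measured in 4T1, 53.7% rose there and 27.3% fell. Of the 235 down in MC38 and up in LLC, 17.4% rose in 4T1 and 62.1% fell, while over all 12451 genes 34.4% rose and 35.6% fell. The lists divided. HIF targets mostly rose in 4T1 (20 of 23, 2 fell), as in MC38, and Bnip3 rose by 1.01 ± 0.0801. Amino acid genes fell in 4T1 (18 of 20, none rose), as in LLC, and stress response genes were mixed, with 4 up and 7 down of 14. Trib3 fell by 0.17 and Slc7a11 by 0.20 in 4T1, while Ddit3 rose by 0.58. Of the 42 S phase genes, 39 fell in 4T1 and none rose, whereas 1 fell in MC38 and 1 in LLC. The 4T1 cells are another line at 24 hours in another medium, and no difference from them was tested.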

How the data were processed

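RNA was sequenced from MC38 and LLC cells given DMSO or sildenafil, 3 libraries per group, and groups were taken from the labels. Per the labels' protocols, polyA RNA was made into stranded libraries and read from both ends for 100 cycles. A single gene table of expected counts was deposited. The submitters' processing notes name STAR 2.7.0f, RSEM 1.3.1, bcl2fastq 2.17 and cutadapt 1.18 with build mm10. The sources used here give neither annotation release nor strand setting, so overlapping and antisense genes may share reads. Counts of close paralogs are uncertain because RSEM divides shared reads. All 55450 identifiers matched GENCODE M21, from which positions were taken (mm10).

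Expected counts were rounded to whole numbers and fitted with edgeR 4.0.16 in R 4.3.3 on the 12 libraries (TMM factors, filterByExpr, quasi-likelihood F test with robust fitting, 1 coefficient per group, 8 residual degrees of freedom). Contrasts were the response in each line (sildenafil minus control) and LLC minus MC38. Benjamini-Hochberg adjustment ran over all genes tested, and an adjusted p under 0.05 counts as a call. Responses are log2 fold changes with their SE (n = 3 per group), and CPM values use TMM-scaled totals. An opposite call needs a called difference and a call of opposite sign in each line. Gene lists are described by counts and medians without a set test. The comparison, the lists and the named genes were chosen with earlier results of these data known.

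The named genes were the 10 largest differences per direction (at least 5 CPM, no predicted gene name), the 8 strongest opposite calls per direction, up to 4 called members of each list and 28 genes of interest whatever their values. Not every one is given, and some list members are counted with their list but not reported here singly. The fit was tested on simulated data first. Alternatives were DESeq2 1.42.0, limma-voom (limma 3.58.1), RLE factors, library totals alone, no filter, a stricter filter (5 CPM in 3 libraries), all 18 libraries, each line alone, the replicate number as a block, protein-coding genes alone, the level of Gm26917 as a covariate, unrounded counts, a test against 2-fold and each library left out. A restriction to genes at 5 CPM or more in each line, and leaving out control replicate 3 of both lines, were added after seeing the data. Promoters are from RefSeq (GRCm38.p6). Plots were drawn with matplotlib 3.10.9.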

Additional observations from a re-analysis of the deposited data

Results flagged for a closer look

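The test of the difference between the lines itself called 3271 genes, and 225 rose in MC38 and fell in LLC while 246 fell in MC38 and rose in LLC. The 8 strongest genes of the first kind, by the smaller of their 2 responses, had differences of -2.21 for Trib3, -2.23 for Cdkn1a, -1.74 for Aldh1l2, -1.91 for Atf3, -1.53 for Slc7a11, -1.23 for Acot2, -1.89 for Bnip3 and -1.12 for Nfil3. The 8 strongest of the second kind had differences of 2.68 for Prl2c2, 2.87 for Abca1, 3.02 for Cxcl1, 1.71 for Wnt9a, 1.38 for Col6a2, 1.47 for Il1rl1, 1.13 for Klf2 and 1.36 for Id3. In LLC controls Prl2c2 averaged 0.235 CPM and Wnt9a 0.496 CPM, so their LLC responses rest on few counts. Line and duration of treatment cannot be told apart in any of these.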

How the results depend on the processing

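Of 183 named genes tested, 148 kept their call, or the lack of one, under every alternative in which they were tested (141 in the fit of genes at 5 CPM or more in each line), the test against 2-fold apart. Against 2-fold, 25 of the 179 with a call had one. Under the others 32 lost a call at least once, and 3 (Npc1, Npc2 and Pde5a) gained one. None changed sign. Losses were mainly at genes with few counts in 1 line, such as Card10, Hes1 and Egr1, at ribosomal protein genes and at small differences. Over all genes, the difference against 2-fold was called for 38 genes, 14 with the higher and 24 with the lower response in LLC. Without control replicate 3 of both lines, genes lower in LLC numbered 2346, genes down in LLC 3046, and opposite calls 395 (up in MC38) and 419 (down in MC38). With library totals alone, genes down in MC38 and up in LLC numbered 163. With Gm26917 as a covariate, LLC gave 1944 genes up and 1060 down. Fitted alone, MC38 gave 2445 genes down and LLC 2046 up. Leaving out each library gave 2450 to 4715 called differences (1189 to 2807 higher and 1064 to 1908 lower in LLC), 1626 to 2531 genes up and 1069 to 2274 down in MC38, 2246 to 3765 up and 1299 to 2626 down in LLC, 178 to 310 genes up in MC38 and down in LLC, and 112 to 603 of the reverse. The share of calls higher in LLC was 46.6% with the stricter filter, 48.1% without MC38 control replicate 2 and 62.1% with no filter. The median of the LXR list changed sign, from 0.15 to -0.16 without LLC sildenafil replicate 3.

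Replicate numbers are shared by the groups, but same-numbered control and sildenafil libraries did not all deviate together (correlations 0.284, 0.0936 and 0.439 in MC38, and 0.242, -0.141 and 0.248 in LLC). Libraries of different number gave -0.345 to 0.177 in MC38 and -0.375 to 0.24 in LLC. In MC38 each sildenafil library correlated best with its same-numbered control, whereas LLC sildenafil replicate 2 did so with control replicate 3. With the replicate number as a block, 3162 of the 3271 difference calls were kept, 458 of the 471 opposite calls were kept, and 4 of the 183 named genes lost their call. That fit called 3695 differences, with 268 genes up in MC38 and down in LLC and 359 of the reverse.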
